A study of Mus musculus with 12 samples.

Results

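Arntl, Clock and Npas2 are the genes of the positive arm of the circadian clock, and their nascent RNA was followed in mouse liver through the light:dark cycle. The 3 genes were taken by symbol from a table of 21490 gene symbols, and each of them passed the filter of more than 6 rpbp in at least 1 library, which left 6284 symbols for testing. The signal is in reads per base pair (rpbp), the number of reads on the exons of a gene divided by the exon length and scaled to library depth. Levels of different genes are thus compared per base of exon. Gene length and the place of the exons along a gene are not corrected for.

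All libraries came from the livers of adult male C57BL/6 mice, 3 to 6 months old and with no genetic change or drug, that had been kept for 2 weeks or longer in 12 hr of light and 12 hr of dark. Livers were taken at 6 Zeitgeber times (ZT, hours after lights on), namely ZT0, ZT4, ZT8, ZT12, ZT16 and ZT20, with 2 replicates each, which gives 12 libraries in 2 replicate series. There was no mutant or constant-darkness group. RNA was recovered from the chromatin pellet of purified nuclei and depleted of polyadenylated RNA, so the signal reads RNA that was still being made rather than the store of mature mRNA.

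BMAL1, the product of Arntl, is a bHLH-PAS transcription factor that pairs with CLOCK or with its close relative NPAS2 and binds E-boxes in the genes of the Period and Cryptochrome repressors and of the REV-ERB receptors. The repressors shut off the pair that induced them, and this loop gives a period of about a day. In a linked loop, REV-ERB receptors repress and ROR receptors activate genes that carry a ROR/REV-ERB response element (RORE), of which Arntl is the classic case.

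The libraries were first compared over the whole table. The signal summed over all symbols ranged from 118342 to 160545 rpbp, and no pair of libraries was identical. From 3390 symbols (ZT16 replicate 2) to 4510 (ZT0 replicate 2) exceeded 6 rpbp in a library. Genes in use in every cell were above 0 in every library but not at an even level. Actb ranged from 8.2 to 19.2 rpbp, Gapdh from 1.6 to 10.9, Tbp from 3.5 to 6.5 and Polr2a from 6.4 to 12.0. Summed hepatocyte markers (Alb, Ttr, Apob, Cps1, Cyp2e1 and Serpina1a) lay between 703 and 1861 rpbp, against 14.4 to 47.5 for Kupffer cells, 12.2 to 25.1 for endothelial cells and at most 9.3 for stellate cells, cholangiocytes and lymphocytes. The Kupffer cell markers Clec4f, Cd5l, Marco and Vsig4 summed to 37.5 and 38.3 rpbp at ZT12 and to 47.5 and 14.4 at ZT8, but to between 21.2 and 23.1 at ZT20 and ZT0, and their part in the results below was not tested. In whole liver, fewer cells of a type and less RNA per cell cannot be told apart.

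Arntl (uc009jhe, ENSMUSG00000055116.6) is a protein-coding gene on the forward strand at chr7:120350979-120457636 in mm9, a span of 106658 bases with 2925 exonic ones. Its nascent RNA fell to a trough at ZT8 and was high from ZT20 to ZT0. Replicates 1 and 2 read 8.0 and 10.1 rpbp at ZT0, 3.2 and 9.4 at ZT4, and 0.9 and 0.7 at ZT8. They then read 1.8 and 1.3 rpbp at ZT12, 4.2 and 3.3 at ZT16, and 10.4 and 9.1 at ZT20. Thus the 4 libraries of ZT20 and ZT0 all lay at 8.0 rpbp or above, the 4 of ZT8 and ZT12 at 1.8 or below, and the ZT4 pair spread almost over that whole distance, differing 2.94-fold. The ZT20 mean of 9.75 ± 0.919 rpbp was 12.2 times the ZT8 mean of 0.8 ± 0.141 (SD, n = 2 each).

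Clock (uc008xur, ENSMUSG00000029238.7) lies on the reverse strand at chr5:76641202-76733797, 92596 bases long with 8832 bases of annotated exon. It had the highest level of the 3 genes and the smallest swing relative to its level. In rpbp its mean rose from ZT8 to ZT20 by 8.45, beside 8.95 for Arntl and 6.5 for Npas2. Replicates 1 and 2 read 9.8 and 13.3 rpbp at ZT0, 11.2 and 12.9 at ZT4, and 6.4 and 8.3 at ZT8. At ZT12 they read 6.7 and 8.0 rpbp, at ZT16 8.8 and 8.4, and at ZT20 15.4 and 16.2. Both ZT20 libraries stood above the other 10, and no library fell below the 6 rpbp limit. The ZT20 mean of 15.8 ± 0.566 rpbp was 2.15 times the means of ZT8 and ZT12, 7.35 ± 1.34 and 7.35 ± 0.919 (SD, n = 2 each).

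Npas2 (uc007atd, ENSMUSG00000026077.9), the CLOCK relative, lies on the forward strand at chr1:39251057-39419031 and is the longest of the 3, with a span of 167975 bases and 4789 bases of annotated exon. Its signal was close to 0 from ZT8 to ZT16. Replicates 1 and 2 read 10.4 and 6.9 rpbp at ZT0, 0.8 and 3.2 at ZT4, and 0.0 and 0.1 at ZT8. They read 0.1 and 0.0 rpbp at ZT12, 0.3 and 0.1 at ZT16, and 8.0 and 5.1 at ZT20. All 6 libraries from ZT8 to ZT16 were at or below 0.3 rpbp and all 4 of ZT20 and ZT0 at or above 5.1. Because 2 libraries are listed at 0, no fold against that trough is given. Only 3 of the 12 libraries exceeded 6 rpbp, and Npas2 entered the tests through these libraries alone.

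**Figure D1:**
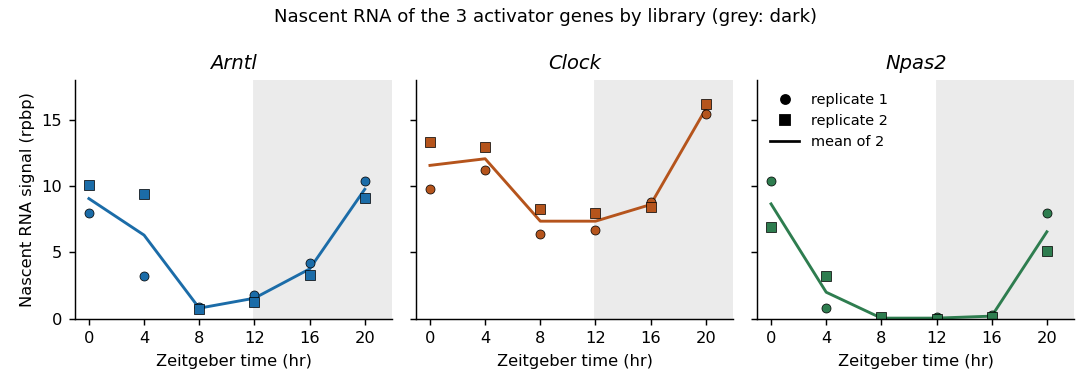
Nascent RNA signal in rpbp (vertical axis, shared by the panels) of Arntl, Clock and Npas2 against Zeitgeber time in hr, with the dark phase in grey; circles are replicate 1, squares replicate 2 and lines the mean of 2. All 3 genes were high at ZT20 and ZT0, Npas2 lay at or below 0.3 rpbp from ZT8 to ZT16, and Clock never fell below 6.4 rpbp.

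To show what the 3 genes have in common outside the signal table, the bases within 1000 of each annotated start were searched on both strands in the mm9 genome, at GENCODE M1 protein-coding starts. The 11-base RORE consensus was found near all 3 genes, and in the windows of 577 of 22380 starts (2.58%). The sites are printed 5′ to 3′ with the match in capitals and the flanking bases in lower case, because the elements differ between the genes in number, strand and place. The first Arntl site lies at chr7:120351051-120351061, inside the first exon and on the strand of the gene, 72 bases after the start. The Clock site lies at chr5:76733044-76733054, in an intron and on the strand opposite to the gene, from 763 to 773 bases after the start. Npas2 had 2 sites upstream of its start, one on its own strand at chr1:39249680-39249690 and one on the opposite strand at chr1:39249845-39249855.
Arntl RORE, exon: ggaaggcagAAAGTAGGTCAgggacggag
Arntl second element, exon: attggtcggAAAGTAGGTTAgtggtgcga
Clock RORE, intron, opposite strand: gacaggaatAAAGTGGGTCAcaaggccta
Npas2 RORE, upstream: ttggaaaaaTATGTAGGTCAgtggaacat
Npas2 RORE, upstream, opposite strand: ctggtcaggAAAATGGGTCAaggatcggc

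The second Arntl element, at chr7:120351015-120351025, differs from the consensus near its end. It was found with AAAGTAGGTNA, a pattern written after the first Arntl site had been seen and one that also matches that first site. This pattern occurred at 0.523% of starts, and Arntl held 2 copies. The shorter RORE core AGGTCA, which lies inside one of the Npas2 sites and the first Arntl site, was found near 67.9% of starts and so marks no gene out. Neither the E-box CACGTG (27.8% of starts) nor the D-box TTATGTAA (6.55% of starts) was found within 1000 bases of the start of any of the 3 genes. These are matches of letters and describe the windows alone.

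Rhythmicity was measured with F24, the share of the variance over the 12 libraries that lies in a 24-hr cosine, and tested by permuting the 12 values. The rhythmic call asked for 3 things at once, namely F24 above 0.45, a permutation p under 0.05 before adjustment and a highest library more than 1.5 times the lowest. By this rule all 3 genes were rhythmic, beside 15.2% of all tested symbols. F24 was 0.829 for Arntl (p = 0.00169), 0.673 for Clock (p = 0.0102) and 0.772 for Npas2 (p = 0.000250, one-sided permutation tests with 100000 permutations). After Benjamini-Hochberg adjustment over all tested symbols the permutation p was 0.0916 for Arntl, 0.163 for Clock and 0.0451 for Npas2, and only Npas2 stayed under 0.05, as did 0.7% of all tested symbols. That value was close to the limit, and lay between 0.0640 and 0.170 when any single one of the 12 libraries was left out. The phases of the fitted cosines fell together, at ZT22.5 for Arntl, ZT22.5 for Clock and ZT22.8 for Npas2.

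Leaving out each library in turn moved the phase of Arntl between ZT21.8 and ZT22.9, that of Clock between ZT22.0 and ZT22.9 and that of Npas2 between ZT22.5 and ZT23.4, so the order of the 3 phases was not resolved. Each gene kept the rhythmic call in each of these 12 fits, with a highest permutation p of 0.00699 for Arntl, 0.0270 for Clock and 0.00415 for Npas2.

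The replicate series were then fitted one at a time. In series 1 the phases were ZT21.3 for Arntl, ZT21.8 for Clock and ZT22.4 for Npas2. In series 2 they were ZT23.5, ZT23.0 and ZT23.4, so that all 3 genes were later in series 2, by 2.26, 1.24 and 1.03 hr. Among all 956 rhythmic symbols 563 were later in series 2, with a median shift of 0.358 hr. Exact permutation tests over the 720 orders of 6 values, for which the smallest possible p is 0.0167, gave p = 0.0167 for Arntl, 0.183 for Clock and 0.0333 for Npas2 in series 1. In series 2 the exact p was 0.0833 for Arntl, 0.117 for Clock and 0.0333 for Npas2, so Npas2 alone met all limits in both series, with 4.14% of tested symbols meeting them in series 1 and 2.72% in series 2.

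Set against all tested symbols, the 3 genes had high F24 at quite different levels. F24 was above that of 99.2% of tested symbols for Arntl, 95.9% for Clock and 98.4% for Npas2, where the median symbol had 0.222. The mean over 12 libraries was 10.45 rpbp for Clock, 5.2 for Arntl and 2.92 for Npas2, which placed Clock above 68.8%, Arntl above 21.1% and Npas2 above 1.54% of tested symbols, whose median was 7.63 rpbp. The SD over the mean of the 12 values ran in the opposite order, 0.317 for Clock, 0.747 for Arntl and 1.29 for Npas2, beside a median of 0.252. Clock exceeded 6 rpbp in all 12 libraries, Arntl in 5 and Npas2 in 3. A symbol with a mean below 6 rpbp passes the filter only if it varies. The opposite order is thus partly set by the filter and is given as a description.

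**Figure D2:**
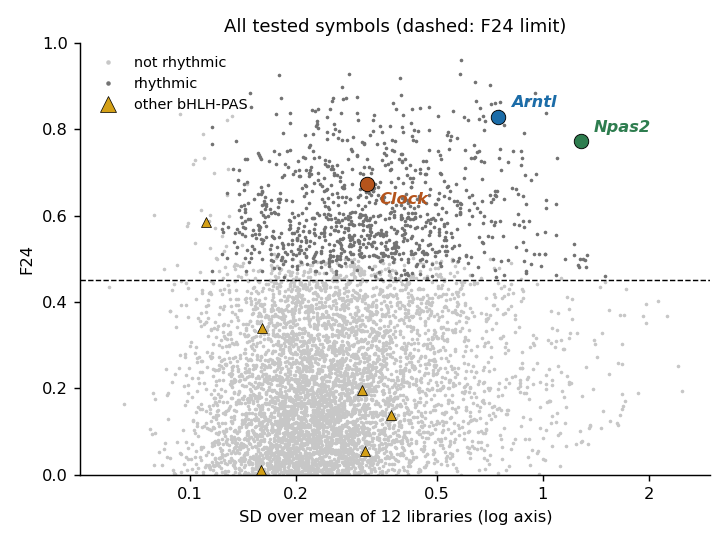
F24 (vertical axis) against the SD over the mean of the 12 libraries (horizontal log axis) for all tested symbols, with rhythmic symbols in dark grey, the 3 activator genes as labelled circles, the other tested bHLH-PAS genes as triangles and the F24 limit of 0.45 dashed. Arntl and Npas2 sit far to the right at F24 of 0.829 and 0.772, while Clock sits at 0.673 with an SD over the mean of 0.317, nearer to the median symbol at 0.252.

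The rise and fall of the 3 genes differed in their steps. A step of 4 hr is described here by whether both libraries of a time point lay above or below both of the one before, without a test. By this description alone the rise of Arntl was seen first. It began at low values, since its ZT8 and ZT12 libraries lay at 1.8 rpbp or below. The ZT8 libraries were run on 2 lanes and those of ZT12 on 1. Both Arntl libraries were higher at ZT12 than at ZT8 (as for 32.3% of tested symbols), higher again at ZT16 (6.64%) and at ZT20 (37.4%). Clock rose over the last pair of these steps only, and Npas2 over the ZT16 to ZT20 step only, from 0.2 to 6.55 rpbp on average. With Npas2 at a mean of 0.05 rpbp at both ZT8 and ZT12, a small earlier rise could not be seen. The order of rise was not tested.

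The way down also differed. From ZT20 to ZT0 both Clock libraries were lower (18.9% of tested symbols) and the mean fell by 4.25 rpbp, while those of Arntl and Npas2 overlapped. From ZT0 to ZT4 both Npas2 libraries were lower (16.9% of tested symbols), and those of Arntl and Clock overlapped. All 3 genes were lower at ZT8 than at ZT4 (30.0% of tested symbols).

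Transcription was gathered into the end of the night to a different degree. Of the signal summed over the 12 libraries, 86.9% fell at ZT20 and ZT0 for Npas2, 60.3% for Arntl and 43.6% for Clock, where a level that never changed gives 33.3% and the median tested symbol had 33.3%. In series 1 and 2 the shares were 93.9% and 77.9% for Npas2, 64.6% and 56.6% for Arntl, and 43.2% and 44.0% for Clock, so the order held in both. These time points were chosen after the values were seen. Npas2 exceeded 6 rpbp in 3 libraries, all of ZT20 or ZT0, and Arntl in 5, against all 12 for Clock. The shares and their order are thus partly set by the filter and are given as a description.

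Whether time points differed beyond the spread of the replicates was asked with limma on log2(rpbp + 1), a scale on which the changes of low genes are understated, most of all those of Npas2. The F-test over the 6 time points called all 3 genes, beside 7.65% of tested symbols, with adjusted p = 0.00990 for Arntl, 0.0472 for Clock and 0.00286 for Npas2. The Clock call was lost without any single one of the 12 libraries (adjusted p from 0.0506 to 0.146), whereas those of Arntl and Npas2 were kept in all of these fits.

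For ZT20 against ZT8, time points sequenced on the same number of lanes, all 3 genes were higher at ZT20, as were 1.16% of tested symbols. The log2 difference was 2.58 for Arntl (SE 0.353, limma adjusted p = 0.00766), 2.82 for Npas2 (SE 0.364, adjusted p = 0.00663) and 1.02 for Clock (SE 0.210, adjusted p = 0.0437). Both libraries of ZT20 lay above both of ZT8 for each gene (20.8% of tested symbols). The adjusted p passed 0.05 for Clock when any library other than those of ZT16 was left out, reaching 0.238 without ZT20 replicate 1. It did so for Arntl without ZT8 replicate 1 (0.0571), ZT8 replicate 2 (0.0516) or ZT20 replicate 1 (0.0887), and for Npas2 without ZT8 replicate 1 (0.0571) or ZT20 replicate 1 (0.0817), while the differences stayed between 2.49 and 3.10.

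At ZT0 against ZT12, which mark lights on and lights off, 2 of the 3 genes passed, beside 1.59% of tested symbols that were higher at ZT0. The log2 difference was 3.18 for Npas2 (95% confidence interval 2.37 to 3.99, limma adjusted p = 0.00244) and 1.98 for Arntl (1.19 to 2.76, adjusted p = 0.0141). For Clock it was 0.58 (0.112 to 1.04, adjusted p = 0.163), although both of its ZT0 libraries lay above both of ZT12 (22.5% of tested symbols). Without any one of the ZT0 or ZT12 libraries the adjusted p of Arntl rose to between 0.0646 and 0.0912, at differences of 1.83 to 2.13.

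ZT16 and ZT4 fall between the peak and trough of the fitted cosines. By its values, however, Npas2 was still in its trough at ZT16 (0.3 and 0.1 rpbp), and Clock averaged 12.05 rpbp at ZT4 and 11.55 at ZT0. Between ZT16 and ZT4 limma called 0 of the 3 genes, beside 1.34% of tested symbols lower at ZT16. At an unadjusted limma p under 0.05 it called 1 of 3, beside 19.4% of tested symbols in either direction. That gene was Npas2, with a log2 difference of -1.20 (95% confidence interval -2.01 to -0.39, adjusted p = 0.126), which shrank to -0.59 without ZT4 replicate 2, where its unadjusted limma p was 0.0992, and grew to -1.81 without ZT4 replicate 1. The difference was -0.44 for Clock (-0.91 to 0.03, adjusted p = 0.279) and -0.48 for Arntl (-1.27 to 0.30, adjusted p = 0.469). The value of Arntl rested on ZT4 replicate 2, the higher of the unequal pair, and turned to 0.17 without it. Both ZT16 libraries lay below both of ZT4 for Clock and Npas2, as they did for 42.2% of tested symbols.

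**Figure D3:**
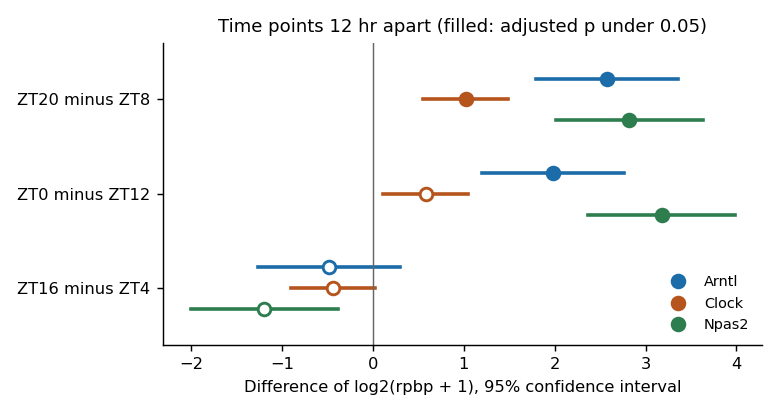
Differences of log2(rpbp + 1) between time points 12 hr apart (horizontal axis) for Arntl, Clock and Npas2, with limma estimates as circles, filled where the adjusted p was under 0.05, and 95% confidence intervals as bars. ZT20 against ZT8 was called for all 3 genes, ZT0 against ZT12 for Arntl and Npas2, and ZT16 against ZT4 for none.

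ZT8 replicate 2 stood apart from the other libraries in one respect that could touch genes of unequal base composition. Its signal ran 1.20 lower on the log2 scale in the most GC-rich exons than in the most GC-poor ones, a gap that lay between -0.57 and 0.52 in the other 11 libraries. The exons of Clock are 42.3% GC, those of Arntl 48.1% and those of Npas2 53.9%, with a median of 49.8% over tested symbols. With this trend removed from every library, the ZT20 minus ZT8 difference was 2.58 for Arntl, 1.09 for Clock and 2.83 for Npas2, and F24 was 0.857, 0.794 and 0.762.

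Since a call for one gene and not for another shows no difference between them, the ratios were tested directly, as F24 of the log2 ratio in each library, with adjustment over the 3 pairs. The Npas2 to Clock ratio was rhythmic, with F24 of 0.777 (permutation p = 0.000620, adjusted 0.00186) and a fitted log2 amplitude of 1.33. So was the Arntl to Clock ratio, with F24 of 0.755 (permutation p = 0.00383, adjusted 0.00574) and an amplitude of 0.85. The fitted peaks of these ratios fell at ZT23.1 and ZT21.9, and their lowest means at ZT16 (-3.00) and ZT8 (-2.21). On this log2 scale Npas2 and Arntl thus swung more than Clock did. With means of 2.92 and 5.2 rpbp, Npas2 and Arntl could pass the filter of 6 rpbp only by varying, whereas Clock exceeded it in all 12 libraries. This difference is therefore partly set by the filter.

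For Npas2 and Arntl the ratio did not pass, with F24 of 0.403 (permutation p = 0.0980, adjusted 0.0980). This result depended on how near-zero values were handled, since with a pseudocount of 0.1 instead of 1 F24 was 0.809 (adjusted p = 0.00242) and with 0.5 it was 0.571 (adjusted p = 0.0237). Without ZT4 replicate 2 it was 0.533 (adjusted p = 0.0471). With the pseudocount of 1 the lowest mean log2 ratio was -1.98 at ZT16, when Arntl stood at 3.75 rpbp and Npas2 at 0.2. The highest was -0.07 at ZT0, when the 2 genes stood at 9.05 and 8.65 rpbp.

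CLOCK and NPAS2 pair with the same partner, BMAL1, and the share of Npas2 in the summed signal of Npas2 and Clock was computed for each library. In replicates 1 and 2 it was 51.5% and 34.2% at ZT0, 6.67% and 19.9% at ZT4, and 0% and 1.19% at ZT8. It was 1.47% and 0% at ZT12, 3.30% and 1.18% at ZT16, and 34.2% and 23.9% at ZT20. Only around lights on did nascent Npas2 come near the level of Clock, and in 1 of the 12 libraries, ZT0 replicate 1, it exceeded it. These are shares of nascent RNA per base of exon and say nothing of protein.

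**Figure D4:**
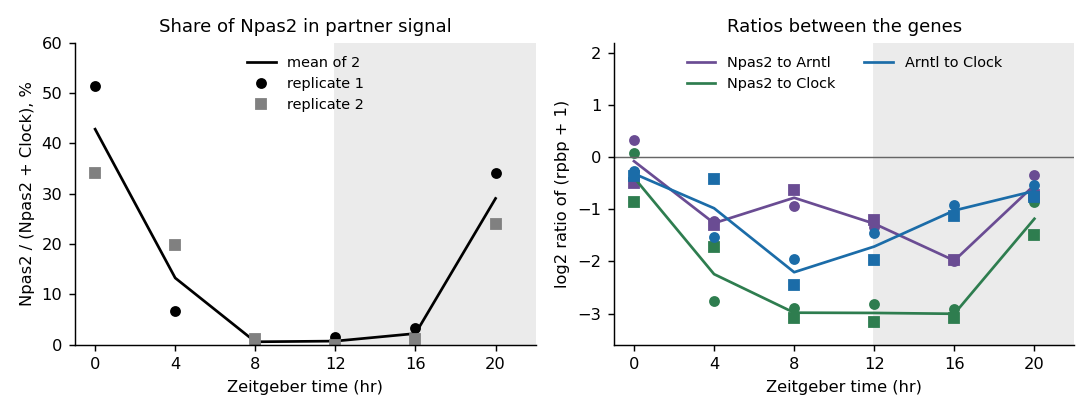
Left, Npas2 as a percentage of Npas2 plus Clock signal in each library against Zeitgeber time; right, log2 ratios of (rpbp + 1) for the 3 pairs of genes, with circles for replicate 1, squares for replicate 2 and lines for the mean of 2. The Npas2 share ran from 0% to 3.30% at ZT8 to ZT16 and from 23.9% to 51.5% at ZT20 and ZT0, and Npas2 to Clock had the deepest trough of the ratios.

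The table offers a second reading of the Arntl locus. The symbol bmal1b, at chr7:120424164-120457636, covers 17 of the 21 annotated exons of Arntl, and its values repeat those of Arntl (F24 of 0.842, phase ZT22.5), so it adds no independent evidence. The symbol A630005I04Rik, at chr7:120383268-120386730, overlaps none of these exons and lies in the intron after the second of them. Its replicates read 18.6 and 16.1 rpbp at ZT0, 5.3 and 14.9 at ZT4, and 1.4 and 0.9 at ZT8. They read 5.0 and 1.9 rpbp at ZT12, 12.4 and 7.3 at ZT16, and 22.3 and 17.6 at ZT20. The high ZT20 and ZT0, the ZT8 trough and the split ZT4 pair of Arntl thus recur in bases that were not counted for Arntl, at a higher level. F24 was 0.860 with a phase of ZT21.7 (permutation p = 0.00103, adjusted 0.0734). The libraries carry no strand, so RNA of this symbol and intronic RNA of Arntl cannot be told apart.

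Around the 3 genes the nearest tested symbols varied in how they behaved. Tmem165, which ends 2933 bases from the end of Clock and is read toward it, had its highest mean at ZT20 as well, with 6.9 and 5.8 rpbp against 3.0 and 3.9 at ZT8, but was not called rhythmic (F24 of 0.481, permutation p = 0.0548). M75, 5733 bases beyond the end of Npas2, showed no such pattern, with means from 4.8 to 7.7 rpbp and F24 of 0.133 (permutation p = 0.510). Mical2, the nearest tested symbol to the left of Arntl although 853490 bases away, was rhythmic with a phase of ZT21.0 (F24 of 0.807, permutation p = 0.00139, adjusted 0.0840). A230062G08Rik, 571166 bases to the right of Clock, was also called rhythmic (F24 of 0.494, phase ZT23.7, permutation p = 0.0428, adjusted 0.286). Copb1 to the right of Arntl (F24 of 0.339) and Rev1 to the left of Npas2 (0.448) were not. Of all tested symbols 15.2% were rhythmic. Without strand, signal that runs on from one of the converging genes Clock and Tmem165 into the other cannot be told apart from its own.

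**Figure D5:**
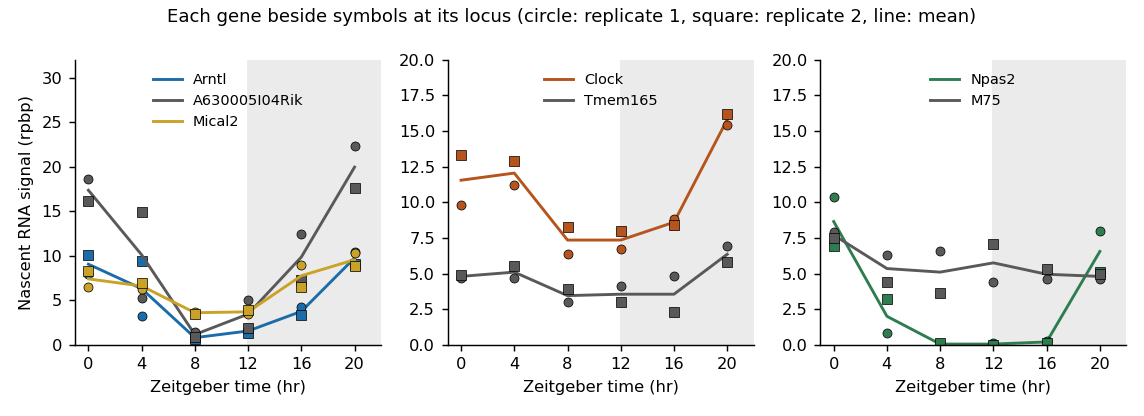
Nascent RNA signal in rpbp against Zeitgeber time for Arntl with A630005I04Rik and Mical2 (left), Clock with Tmem165 (middle) and Npas2 with M75 (right), with circles for replicate 1, squares for replicate 2 and lines for the mean of 2; the left panel has its own vertical scale. A630005I04Rik follows Arntl at up to 22.3 rpbp, and M75 stays between 3.6 and 7.9 rpbp while Npas2 runs from 0 to 10.4.

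For other genes of the clock and its output, the clock list held 20 names, some of them aliases of one another. Of these names 16 were in the table and 15 were tested. Of the 15 tested, 13 were rhythmic by the same rule and 11 passed the limma F-test, with a median F24 of 0.627, beside 15.2%, 7.65% and a median of 0.222 over all tested symbols. The REV-ERB receptor genes peaked in the light phase. Nr1d1, which encodes REV-ERB alpha, had means of 34.1 and 34.5 rpbp at ZT4 and ZT8 against 1.65 and 1.8 at ZT16 and ZT20 (F24 of 0.884, phase ZT6.22, permutation p = 0.000110). Nr1d2, which encodes REV-ERB beta, peaked at ZT8 with 14.2 rpbp (F24 of 0.810, phase ZT8.54). The ROR receptor gene Rora reached 12.2 rpbp at ZT4 (F24 of 0.493, phase ZT2.23, permutation p = 0.0498). It passed neither the adjusted permutation test (adjusted p = 0.303) nor the limma F-test (adjusted p = 0.0871).

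In ZT20 against ZT8 limma called 2 of the 15 clock genes higher and 4 lower, where 1.16% and 0.414% of all tested symbols were called. In ZT0 against ZT12 it called 0 higher and 8 lower, where 1.59% and 2.85% of all tested symbols were called, while Arntl and Npas2 were both higher. At an unadjusted p under 0.05, which 18.4% of tested symbols reached in either direction, 1 clock gene was higher and 11 were lower.

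For other bHLH-PAS genes the counts were small. Of 16 names 15 were in the table, but only 6 passed the filter, namely the dioxin receptor Ahr, its partner Arnt, the hypoxia factors Hif1a and Epas1, and the coactivators Ncoa2 and Ncoa3. None of the 6 was rhythmic (1 at an unadjusted permutation p under 0.05) and the limma F-test called 0 (1 at an unadjusted p under 0.05), with a median F24 of 0.168. Of all tested symbols 15.2% were rhythmic and 7.65% were called by the F-test, and 0 of 6 genes is near these shares. The former was Ncoa2, with F24 of 0.586 and a range of 6.3 to 9.2 rpbp, and the latter Hif1a (limma adjusted p = 0.163). Arnt, which like BMAL1 serves as the common partner of its class, ranged from 7.6 to 12.7 rpbp with F24 of 0.340. Arntl2, the paralog of Arntl, was not tested, its highest library being 1.1 rpbp.

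Cofactors and modifying enzymes of the activators were also counted. Of 24 names 20 were in the table and 14 were tested, of which 1 was rhythmic. The limma F-test called 0, also 0 at an unadjusted p under 0.05, and the median F24 was 0.178, so that these counts too were near the 15.2% and 7.65% of all tested symbols. The rhythmic gene was Jarid1a, a histone demethylase, with means from 5.75 rpbp at ZT16 to 9.85 at ZT8 (F24 of 0.646, phase ZT4.84, permutation p = 0.00726). The coactivators Crebbp and Ep300 had F24 of 0.325 and 0.229.

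Finally, the tested symbols most like each gene were listed by Pearson correlation of log2(rpbp + 1) over the 12 libraries, which share depth and time of day, and symbols at the locus of the gene were left out. For Arntl these were Grk5 (r = 0.972), a receptor kinase, Lgals9 (r = 0.961), 1300002K09Rik (r = 0.953), Ecgf1 (r = 0.949) and the choline kinase gene Chka (r = 0.944). Npas2 ranked 21 (r = 0.894) and Clock 39 (r = 0.858) among the symbols most like Arntl. Those most like Clock were Ppm1b (r = 0.950), Caprin1 (r = 0.945) and the bile salt export pump gene Abcb11 (r = 0.943), followed by D5Wsu178e and mKIAA1724, which share one span. For Npas2 they were AK131839 (r = 0.975), Hectd2 (r = 0.939), its overlapping neighbour AK142254 (r = 0.939), the ubiquilin gene Ubqln1 (r = 0.934) and Grk5 (r = 0.926). Grk5 was thus on the lists of both Arntl and Npas2, with means of 6.15 rpbp at ZT0 and 1.45 at ZT8.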

How the data were processed

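Nascent RNA of mouse liver was sequenced on a Genome Analyzer II, with each ZT8 and ZT20 library run on 2 lanes and the others on 1. Per the submitters' processing notes, CASAVA 1.7 and TopHat were used with the mm9 genome. The deposited signal, made by the authors, is the number of uniquely mapped reads on all exons of a symbol, regardless of strand, per base of exon, scaled to the same depth in every library and rounded to 1 decimal. It is not a count, the table gives no depth, and the 2 replicates per time point limit the precision. The authors' own F24, phase and p-value columns were not used, and 27919 blank lines were dropped.

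Samples were grouped by the time and replicate number in the labels. The 3 members and all lists were chosen with earlier results of these data known. Tests were run on the symbols that exceeded 6 rpbp in any library. F24 was computed on linear values, with 100000 permutations and Benjamini-Hochberg adjustment over all 6284 symbols (Python 3.11.15, numpy 2.4.6). Time points were compared with limma 3.58.1 in R 4.3.3 on log2(rpbp + 1), by a moderated F-test and 2-sided contrasts in 1 fit over 12 libraries. Ratios of members were tested as F24 of their log2 values. The steps were tested on simulated data with known rhythms. Genes named beyond the members are the symbols overlapping or nearest to each member, the 5 symbols most correlated with each (outside its own locus), the REV-ERB genes, Rora and examples from the clock, bHLH-PAS and cofactor lists. Some of these examples were chosen after their values were seen, and 1 gene of the clock list is not reported here by name. Genes were placed with GENCODE M1 on NCBIM37 (mm9), where 14195 symbols matched by name and position, and exon GC was known for 97.9% of tested symbols. Nothing in the labels ties a replicate to a culture or cage, so p-values measure the spread between these samples. Alternatives changed the threshold, pseudocount, scaling, GC trend, replicate and lane blocks, variance prior and libraries included.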

Additional observations from a re-analysis of the deposited data

How the results depend on the processing

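Of 356 values recomputed under alternative settings for 18 results, 310 kept their side of the threshold, 42 fell short of it, 3 newly passed and 1 reversed. Direction was checked for the contrasts alone. Results not called at first counted as kept when they stayed uncalled. The rhythmic call uses the unadjusted p, which a change of filter threshold cannot alter, so part of this count was fixed in advance. Judged by the adjusted permutation p, the rhythms of Arntl (F24 0.829) and Clock (0.673) did not pass. That of Npas2 passed at 0.0451, but not with a threshold of 3 rpbp (0.0618) or none (0.110), with the lanes as a block (0.0976) or without single libraries (0.0640 to 0.170). Without a threshold the limma F-test gave an adjusted p of 0.0543 for Arntl and 0.0793 for Clock. For Clock it was 0.0543 with a threshold of 3 rpbp, 0.0563 and 0.0506 with pseudocounts of 0.1 and 0.5, and 0.0506 to 0.146 without single libraries. In ZT20 minus ZT8 Clock no longer passed with thresholds of 3 rpbp or none (log2 difference 1.02 in both) or a pseudocount of 0.1 (1.11). Without single libraries this difference was 0.853 to 1.18 for Clock, 2.49 to 2.67 for Arntl and 2.54 to 3.10 for Npas2. In ZT0 minus ZT12 Arntl did not pass without a threshold (1.98) and ranged from 1.83 to 2.13 without single libraries. In ZT16 minus ZT4 it ranged from -1.14 to 0.17, and Npas2 from -1.81 to -0.59. The F24 of the Npas2 to Arntl ratio was 0.809 and 0.571 with pseudocounts of 0.1 and 0.5, which brought it past the threshold, and 0.284 to 0.533 without single libraries. The cause of these changes was not tested. A threshold of 12 rpbp left Arntl and Npas2 untested. Over all symbols the F-test called 481, against 133 with no threshold, where 20756 symbols were tested, and 170 to 638 without single libraries. Leaving out a library leaves 1 at its time point, which limma then assumes to vary like the others.

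The main tests did not pair the libraries by replicate number. Replicate differences correlated between time points at -0.117 to 0.320, over 0.1 in 5 of 15 pairs. The highest values were 0.320 for ZT8 with ZT20, 0.225 for ZT8 with ZT16 and 0.202 for ZT16 with ZT20. Libraries of one replicate number thus shared part of their differences at some time points, and the source of this was not tested. With the replicate number as a block F24 was 0.841 for Arntl, 0.711 for Clock and 0.779 for Npas2, the F-test called 455 symbols, and the adjusted permutation p of Npas2 rose to 0.0655, while the rhythmic, F-test and contrast calls of the 3 genes were unchanged.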
